A study of Mus musculus with 2 samples.

Results

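Chaperones are proteins that help others fold, refold or come apart, and 84 of the 21900 protein-coding genes of the RefSeq table were chosen for this account by their symbols. They are the genes named Hspa, Hspb, Hspd, Hspe, Hsph, Hsp90, Dnaja, Dnajb and Dnajc, the 8 subunit genes of the cytosolic chaperonin CCT (Cct2 to Cct8 with Cct6a, and Tcp1), and the heat shock factor genes Hsf1 and Hsf2. Peaks of both lists that overlapped by at least 1 bp were merged into regions, and a gene was given each region found no more than 1 kb from one of its ends. The 84 genes had 80 such regions, of 10806 at coding gene ends and 29076 in all. The rule used symbols and positions, not summit reads or ratios.

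Open chromatin was measured by ATAC-seq, a method in which a transposase cuts accessible DNA, in 2 libraries of 150000 mouse fetal liver cells each, sorted at E14.5 (embryonic day) as lineage-negative and c-Kit-positive. The control cells (replicate 1) were CD45.2(+) Brd9fl/fl and the knockout cells (replicate 2) CD45.2(+) Vav1-iCre Brd9fl/fl, both of strain C57BL/6, so both carried floxed Brd9 alleles and only the knockout carried the Cre. Vav1 regulatory DNA drives this Cre in blood cells, and BRD9 is a bromodomain protein of ncBAF, a complex that remodels chromatin. With 1 library per genotype there was no replicate of either, the sources used here do not say how many embryos stand behind each, and every difference below is one between 2 libraries.

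The HSP70 proteins bind unfolded stretches of other proteins, the DNAJ proteins deliver such clients and switch on the HSP70 ATPase, and HSP90 proteins act later on kinases and receptors. CCT is a closed barrel that folds actin and tubulin, and HSPD1 with its lid HSPE1 forms the barrel of mitochondria. HSF1 switches on many of these genes after heat or protein damage by binding the heat shock element, a row of alternating GAA and TTC units, while misfolding in the endoplasmic reticulum (ER) acts through the ER stress element. In erythroid progenitors, a main cell type of the fetal liver, HSP70 is known to shield the factor GATA1 from caspase cleavage.

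Of the 7 motifs counted, the heat shock element and the ER stress element had the widest relative gap between the promoters of these genes and those of all coding genes, and the stretches that hold them lay inside open regions of both libraries. Promoters were read from a RefSeq table of build GRCm38.p6 (the coordinates are those of mm10) that gives 250 bases before and 50 after a gene start, and 68 of the 84 genes had an entry. A heat shock element of 3 units (alternating GAA and TTC, each 2 bases from the next, starting with either, both strands) occurred in 4 of the 68 genes (5.88%) and in 0.595% of 17492 coding genes. The 4 count 1 stretch shared by Hspd1 and Hspe1 for each gene. An ER stress element (CCAAT and CCACG with 9 bases between them, both strands) occurred in 3 of the 68 genes (4.41%) and in 0.166% of coding genes. Over all 32851 promoter entries, noncoding genes included, the shares were 0.603% and 0.119%. The 5 stretches below end at the base before the start and show the matches in capitals. They are, in order, the stretch before Hspe1, which on the other strand also precedes 1 of the 2 starts of Hspd1 in the table (chr1:55087948-55088147, plus strand), Dnajb6 (chr5:29735798-29735897, plus), Hspa5 (chr2:34771940-34772089, plus), Hsp90b1 (chr10:86705445-86705694, minus) and Dnajc3 (chr14:118937782-118937931, plus).
Hspe1: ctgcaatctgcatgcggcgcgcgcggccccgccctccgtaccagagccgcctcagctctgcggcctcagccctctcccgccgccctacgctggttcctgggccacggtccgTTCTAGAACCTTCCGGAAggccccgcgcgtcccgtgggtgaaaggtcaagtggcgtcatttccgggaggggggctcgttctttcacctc
Dnajb6: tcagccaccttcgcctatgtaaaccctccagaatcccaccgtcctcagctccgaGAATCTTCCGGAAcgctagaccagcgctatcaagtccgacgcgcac
Hspa5: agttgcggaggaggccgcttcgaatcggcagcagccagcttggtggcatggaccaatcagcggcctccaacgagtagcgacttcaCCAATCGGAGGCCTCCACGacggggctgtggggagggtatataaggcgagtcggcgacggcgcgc
Hsp90b1: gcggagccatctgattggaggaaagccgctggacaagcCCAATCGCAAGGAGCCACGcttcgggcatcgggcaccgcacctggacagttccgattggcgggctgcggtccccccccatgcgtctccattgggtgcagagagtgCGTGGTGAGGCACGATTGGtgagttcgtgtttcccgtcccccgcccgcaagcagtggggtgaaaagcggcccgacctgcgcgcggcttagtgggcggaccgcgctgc
Dnajc3: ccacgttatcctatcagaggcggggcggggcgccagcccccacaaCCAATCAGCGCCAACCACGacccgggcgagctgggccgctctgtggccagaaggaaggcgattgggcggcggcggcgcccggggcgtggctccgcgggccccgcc

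In the stretch shared by Hspe1 and Hspd1 a pair of 3-unit matches overlap, so the capitals form 1 run. The control summit lay 26 and 31 bp from the middles of these matches and the knockout summit 36 and 41 bp. The fourth gene with a 3-unit match, Hsph1, had it after the start. At Dnajb6 the summits were 63 and 62 bp from the match, and at Hsph1 they were 348 and 340 bp away. At Hspa5 the ER stress element lay 44 bp from the control and 85 bp from the knockout summit, and at Dnajc3 these distances were 50 and 12 bp. Hsp90b1 had 2 matches, of which the nearer lay 57 and 55 bp from the summits. The shorter core of 2 units (GAANNTTC or TTCNNGAA, both strands), which every 3-unit match also contains, occurred in 19 of the 68 genes (27.9%) and in 15.7% of coding genes. A GC box (GGGCGG, both strands) occurred in 76.5% against 49.2%, a CCAAT box (CCAAT, both strands, also a part of the ER stress element) in 44.1% against 42.3%, and a TATA box (TATAAA, both strands) in 5.88% against 14.8%. The cAMP response element TGACGTCA was found in 1 of the 68, Dnajc27, and in 2.54% of coding genes. A match describes the reference sequence and shows no binding.

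**Figure D1:**
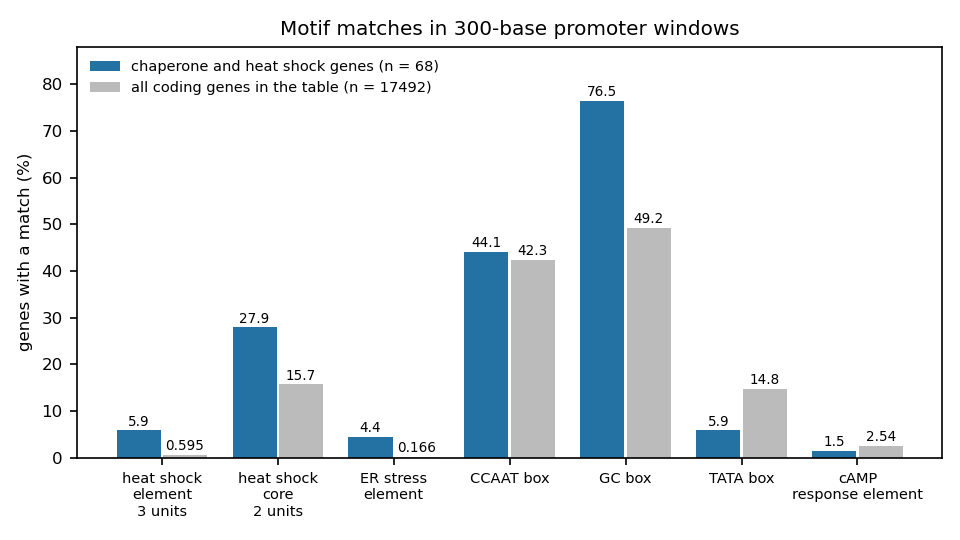
Share of genes (%) with at least 1 match of each motif, on either strand, in the 300-base promoter windows of the 68 chaperone and heat shock genes with an entry (blue) and of 17492 coding genes (grey). The 3-unit heat shock element (5.88% and 0.595%) and the ER stress element (4.41% and 0.166%) show the widest relative gaps, and the GC box (76.5% and 49.2%) the widest gap in percentage points. The stretch with heat shock elements shared by Hspd1 and Hspe1 counts for each gene.

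The height of a region is given as summit reads, the number of extended reads over its highest point, recovered as a whole number from the deposited fold and −log10 p of each peak. The control list held 25330 peaks and the knockout list 22348, with medians of 37 and 28 summit reads. Of 6 marker genes of the sorted cells, Kit, Myb and Runx1 had gene-end regions in both lists, and Cd34, Gata2 and Ptprc had none within 1 kb of their ends. Of 4 erythroid genes, Klf1, Epor and Tfrc had one in both lists. No gene-end region was found in either list at 4 macrophage and 4 lymphoid markers, and of 4 hepatocyte markers only Apoa1 had one (26 and 19 reads). Of 3 endothelial markers, Kdr had one in the knockout list alone (17 reads). The libraries also differed at sex-linked loci, with 33 reads at Ddx3y in the knockout list alone, and 86 control and 33 knockout reads at Xist. The region at the start of the targeted gene, Brd9, was open in both (217 and 151 reads), which does not check the labels, since the deleted part is not stated. Genotype and the sex-linked differences cannot be told apart. All 84 genes lie on autosomes, and the part of sex in their ratios was not tested.

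Most chaperone genes had open gene ends in both libraries. Of the 84, 68 (81.0%) had a gene-end region in both lists, against 47.4% of all coding genes. A gene with any region in both lists was counted there, whatever its other regions. On that count, none was in the control list alone (3.42% of coding genes), 1 was in the knockout list alone (1.79%), and 15 (17.9%) had no region in either list (47.3%). Counted by region, 3 were in the control list alone. They lay beyond the 3' ends of Dnajc8 (15 reads), Tcp1 (13) and Hspa1a (34), genes that also had a region in both lists. All 13 HSP70 genes, all 3 HSP90 genes, all 8 CCT genes, both genes of the mitochondrial chaperonin and all 4 Dnaja genes were open in both lists, as were 10 of 13 Dnajb and 21 of 28 Dnajc genes, but only 3 of 8 small heat shock genes.

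The 68 genes had medians of 207 (control) and 141.5 (knockout) summit reads, while the 10376 coding genes with a region in both lists had 120 and 74. At least 400 control reads were found at 17 of the 68, where 8.83% of those coding genes had as many, and at least 200 at 35 (51.5%, against 29.3%). Their median width was 1093.5 bp, that over coding genes 1038 bp. The knockout library was shallower, with 0.640 times the lowest background of the control, and the scaled ratio below is the knockout count over the control count divided by 0.640. The 95% intervals of the ratio are exact conditional binomial intervals. They cover counting error only, and no variation between embryos.

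As a set, these genes had scaled ratios near those of other genes. The median log2 scaled ratio over the 68 was −0.02, against 0.01 over all 10376 coding genes, with 32 ratios above 1 (47.1%, against 51.5% of coding genes) and 36 below (52.9%, against 48.5%). An interval above 1 was found at 5 of the 68 (7.4%), where 9.32% of coding genes had one, and an interval below 1 at 5 (7.4%), where 7.59% had one. Among genes with at least 100 control reads, 5 and 5 of 52 (9.6% each) compared with 11.6% and 10.3% of 5960 coding genes. In that class no gene had a ratio of at least 1.5 (0.638% of coding genes) and 1, Dnajc30, had one of at most 1/1.5 (2.75%). These shares were near the background or below it. A ratio of at least 1.5 was found at 1 of the 68 genes, Dnaja4, against 4.94% of coding genes, and a ratio of at most 1/1.5 at 2, Hspb9 and Dnajc30, against 4.59%. The SD of the log2 ratio was 0.26 over the 68, where counting error alone would give about 0.21, and 0.36 over the coding genes, where it would give 0.28.

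**Figure D2:**
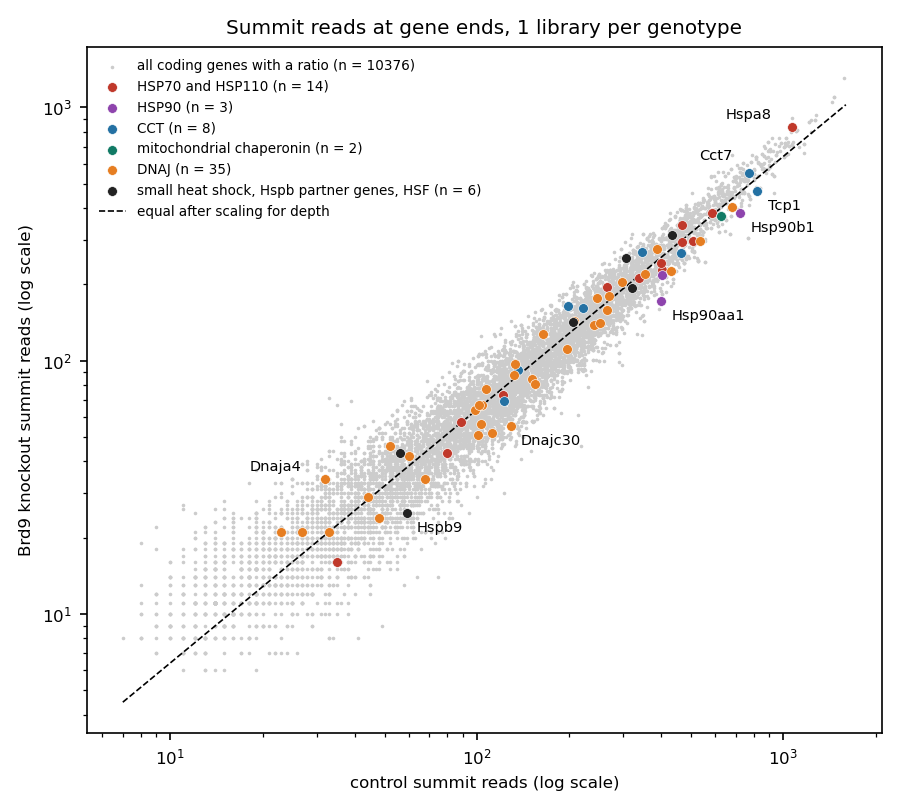
Summit reads of the control (horizontal) and Brd9 knockout library (vertical), both on log axes, at the gene-end region that stands for each gene; grey points are all 10376 coding genes with a ratio, coloured points the 68 chaperone and heat shock genes by family, and the dashed line marks equal values after scaling by 0.640. The coloured points lie along the line from 23 to 1069 control reads, with Hsp90aa1 and Dnajc30 below it and Hspa8 above it.

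Hspa8, the constitutive cytosolic HSP70 that also strips clathrin from vesicles, had the highest region of the set. The control had 1069 summit reads there and the knockout 837 (chromosome 9, 40800624 to 40801771), and only 0.193% of the coding genes had more control reads. Its scaled ratio was 1.22 (95% interval 1.12 to 1.34), so the knockout count was above the scaled control count. A second, wider region of 2279 bp, which began 836 bp beyond the other end of the gene, had 322 and 161 reads and a ratio of 0.781 (0.642 to 0.946). The regions at the 2 ends of Hspa8 therefore differed in opposite directions, each beyond counting error.

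No other HSP70 gene had an interval that left out 1. Hspa5, the HSP70 of the ER also called BiP, had 507 control and 296 knockout reads (0.912, 0.787 to 1.05). Hspa9, the mitochondrial HSP70 mortalin, had 399 and 242 (0.947, 0.804 to 1.11). Both lay slightly below the line of equal scaled counts, within counting error. Hspa4 and Hspa4l, HSP110-type exchange factors for HSP70, had 401 and 228 reads (0.888) and 337 and 212 (0.982), and Hsph1, the HSP110 gene itself, had 587 and 384 (1.02, 0.896 to 1.16). Hspa14, whose product works at the ribosome, had 467 and 295 reads (0.987). Hspa13, of microsomes, had 266 and 195 (1.14, 0.947 to 1.38). Hspa2, known for its part in sperm formation, was open in these blood progenitors with 468 and 342 reads (1.14, 0.99 to 1.31), and 5.98% of coding genes with a ratio had more control reads. The divergent members had few reads at their ends, Hspa12a 89 and 57 (0.704 to 1.41) and Hspa12b 35 and 16 (0.714, 0.369 to 1.32). A region inside Hspa12b, away from its ends, was higher, with 145 and 74 reads (0.797, 0.594 to 1.06).

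Hspa1a and Hspa1b, the heat-inducible HSP70 genes, are near-identical neighbours on chromosome 17, and their sequences before the start are printed here to show how alike they are. The stretches are chr17:34972157-34972356 for Hspa1a and chr17:34959239-34959438 for Hspa1b, both on the minus strand, with the 2-unit heat shock core in capitals.
Hspa1a: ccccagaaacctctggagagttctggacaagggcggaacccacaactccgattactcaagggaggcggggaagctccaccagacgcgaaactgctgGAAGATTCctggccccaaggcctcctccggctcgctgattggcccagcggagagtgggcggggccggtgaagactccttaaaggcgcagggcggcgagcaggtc
Hspa1b: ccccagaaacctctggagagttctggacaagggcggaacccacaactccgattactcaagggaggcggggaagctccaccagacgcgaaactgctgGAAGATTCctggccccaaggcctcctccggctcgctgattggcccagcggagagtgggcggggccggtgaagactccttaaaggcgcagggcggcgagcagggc

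Of these 200 bases, 199 were equal. The sources used here do not say how the authors placed reads that fit both copies, so the count of either gene is uncertain. The region at Hspa1b had 122 control and 73 knockout reads (0.934, 0.689 to 1.26), and the region that Hspa1a shares with Hspa1l, a testis gene transcribed the other way, had 80 and 43 (0.839, 0.566 to 1.23). Neither gene differed between the libraries beyond counting error. Beyond the 3' end of Hspa1a, a region of 862 bp stood in the control list alone, with 34 reads (23.5 to 47.5).

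All 3 HSP90 genes had scaled ratios below 1, as did 48.5% of coding genes with a ratio. An interval below 1 was found at 2 of the 3, where 7.59% of coding genes had one, and 3 genes are few to set beside these shares. Hsp90aa1, the stress-inducible cytosolic form, had 399 control and 172 knockout reads (chromosome 12, 110695814 to 110696882) and a ratio of 0.673 (0.560 to 0.807). A second region of 2453 bp at its other end (110688681 to 110691133) had 171 and 70 reads and a ratio of 0.639 (0.477 to 0.849). Both ends of Hsp90aa1 thus had fewer knockout reads than the scaled control, and of the coding genes with a ratio 4.93% had a lower one. The only other region within 25 kb of the gene had 25 and 16 reads and a ratio of 0.999 (0.499 to 1.95). Hsp90b1, the HSP90 of the ER whose ER stress elements are printed above, had 722 and 382 reads (0.826, 0.728 to 0.937). Its region also lay within 1 kb of Ttc41. Hsp90ab1, the constitutive cytosolic form, had 401 and 218 reads (0.849) at one end, with an interval from 0.717 to just above 1, and 159 and 101 (0.992, 0.765 to 1.28) at the other.

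The CCT genes split. Of the 8, 5 had ratios above 1, 3 of them with an interval above 1, and 3 had ratios below 1, 1 with an interval below 1. The shares over coding genes with a ratio were 9.32% for an interval above 1 and 7.59% for one below, and 8 genes are few to set beside them. Cct5 had 199 control and 164 knockout reads (1.29, 1.04 to 1.59), Cct6a 346 and 269 (1.21, 1.03 to 1.43) and Cct7 771 and 552 (1.12). The interval of Cct7 ran from just above 1 to 1.25, and with another scaling, by the median ratio of coding gene ends, from 0.993 to 1.24. The region at the other end of Cct6a, wider and shared with Sumf2, had 82 and 46 reads (0.876, 0.597 to 1.27), so the direction and the call for Cct6a hold only for its higher region. Tcp1, which encodes the first subunit of the ring, had 822 and 466 reads (0.885, 0.789 to 0.993). Cct2 (222 and 162 reads, 1.14) and Cct4 (136 and 92, 1.06) were above 1 within counting error, and Cct3 (463 and 267, 0.901) and Cct8 (123 and 69, 0.876) below it. The subunit genes thus showed no common direction at their ends. The region of Tcp1 is shared with Mrpl18, that of Cct7 with Pradc1, that of Cct5 with Atpsckmt and that of Cct6a with Psph, so none of these 4 regions belongs to a CCT gene alone.

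Hspd1 and Hspe1 share the region whose sequence opens the printed set (chromosome 1, 55087402 to 55088647). Control and knockout had 624 and 372 summit reads there, a ratio of 0.931 (0.817 to 1.06). A second region at the 3' end of Hspd1 had 140 and 80 reads (0.892, 0.669 to 1.18). The joint promoter of the mitochondrial chaperonin was thus among the higher regions of the set and did not differ beyond counting error. All 9 mitochondrial members were open in both lists, where 47.4% of coding genes were. Their median ratio was 0.947, with 1 interval below 1, that of Dnajc30, where 7.59% of coding genes with a ratio had one.

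**Figure D3:**
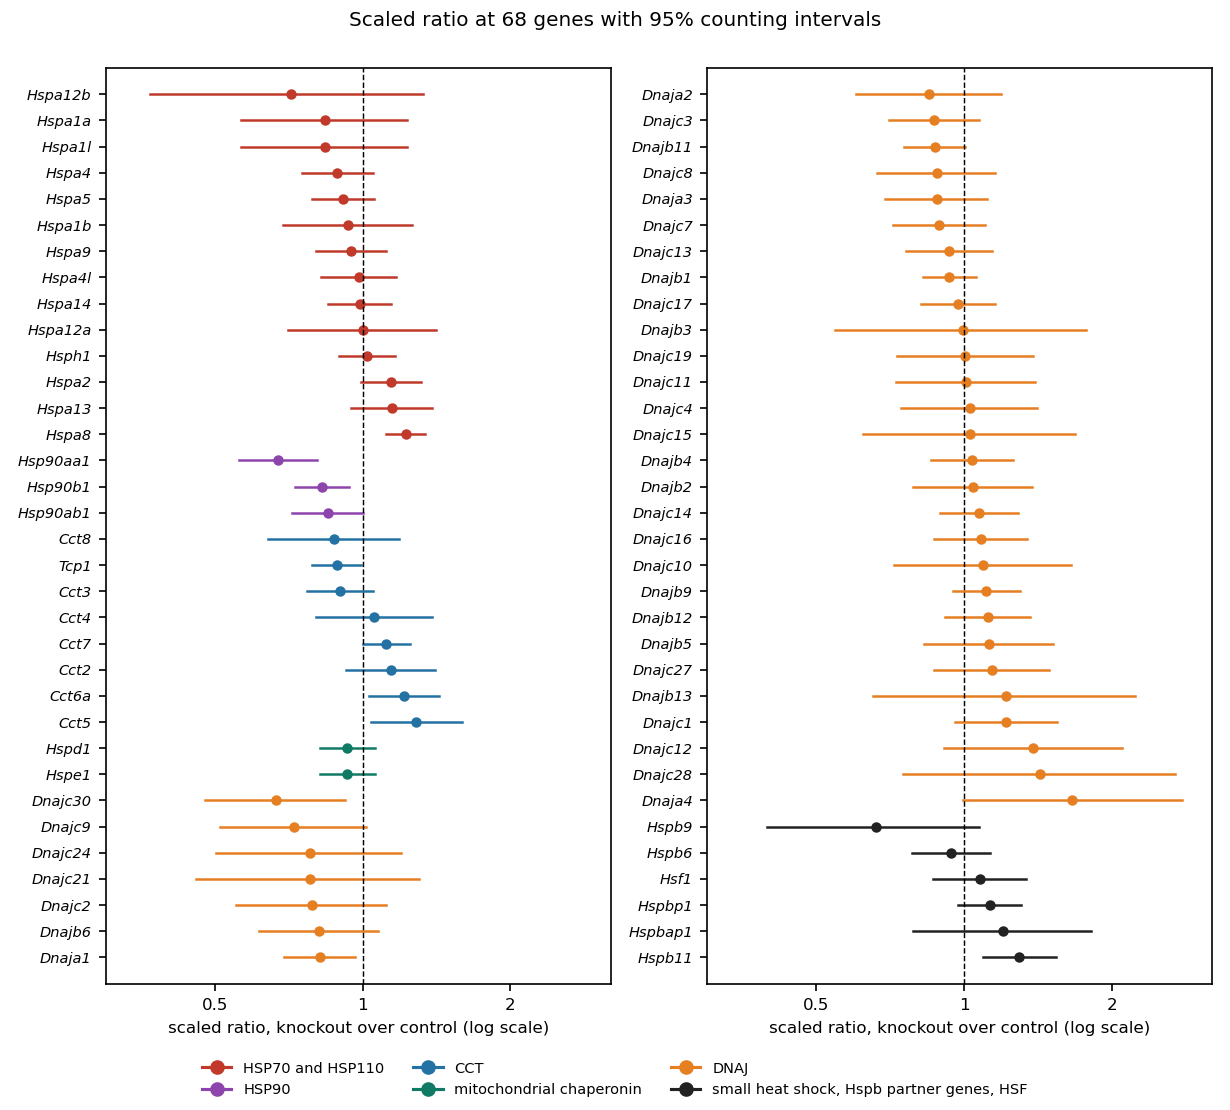
Scaled ratio of knockout over control summit reads (log axis) at the 68 chaperone and heat shock genes with a region in both lists, by family; points are ratios, bars 95% counting intervals and the dashed line a ratio of 1. The 3 HSP90 genes lie below 1, the CCT genes on both sides, and 5 intervals lie above and 5 below 1. Of all coding genes with a ratio, 48.5% lie below 1, and 9.32% and 7.59% have an interval above and below it.

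Among the Dnaj genes, 35 of 45 were open in both lists and most intervals included 1. Dnaja1, a cytosolic partner of HSP70 with a farnesyl anchor, had 430 control and 225 knockout reads (0.817, 0.692 to 0.962), at a region shared with Aptx. Dnajc30, a gene of a mitochondrial protein linked to ATP synthase, had 129 and 55 (0.666, 0.476 to 0.920), at a region shared with Bud23. These were the 2 of the 35 Dnaj genes with an interval below 1, where 7.59% of coding genes with a ratio had one. No Dnaj gene had an interval above 1 at the region that stands for it, where 9.32% of coding genes had one. The other end of Dnajc11, shared with Thap3, had 36 and 39 reads (1.69, 1.05 to 2.74). Among the regions that stand for a gene, Dnaja4 had the highest ratio, 32 control and 34 knockout reads (1.66, 0.993 to 2.78), followed by Dnajc28 with 23 and 21 (1.43, 0.751 to 2.69) and Dnajc12 with 52 and 46 (1.38, 0.908 to 2.09). All 3 rested on few reads and their intervals included 1. Dnajc9, a chaperone of histones H3 and H4, had 112 and 52 reads (0.725, 0.511 to 1.02).

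Dnajb1, the inducible partner of HSP70, had 679 and 406 reads (0.934, 0.824 to 1.06) and was the highest Dnaj region. Among the partners of Hspa5 in the ER were Dnajb11 with 534 and 298 reads (0.872, 0.754 to 1.01), Dnajb9 with 387 and 275 (1.11, 0.947 to 1.30) and Dnajc3 with 253 and 141 (0.870, 0.703 to 1.07). Of 11 ER members, 9 had a ratio, with 5 above and 4 below 1 and a median of 1.09. A list of 12 genes that respond to heat held Hspa1a, Hspa1b, Hspb1, Hspd1, Hspe1, Hsph1, Hsp90aa1, Hsp90ab1, Dnaja1, Dnajb1, Dnajb4 and also Hspa8, whose basal level is already high. Of these, 11 had a ratio, with 3 above and 8 below 1, where the 8 count the region shared by Hspd1 and Hspe1 for each gene, and the median was 0.931. Hspa8 had an interval above 1, and Hsp90aa1 and Dnaja1 had intervals below 1. Of coding genes with a ratio, 51.5% were above 1 and 48.5% below, with intervals above 1 at 9.32% and below 1 at 7.59%. Lists this short are few genes to set beside these shares. All 4 members that work in splicing or with histones and ribosomes in or near the nucleus (Dnajc2, Dnajc8, Dnajc9 and Dnajc17) had ratios below 1, from 0.725 to 0.973. So did 48.5% of coding genes, and none of the 4 intervals left out 1. The other Dnaj genes with a region in both lists had ratios from 0.781, at Dnajc21 and Dnajc24, to 1.22, at Dnajc1.

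Small heat shock proteins hold unfolded proteins in a soluble state, and their genes had the lowest share of open ends among the families. It was 3 of 8, where 47.4% of coding genes were open in both lists, and 8 genes are few to set beside that share. Hspb1, the widespread HSP27 gene, had no gene-end region in either list, and the nearest region lay 9894 bp away. Hspb2, Hspb3 and Hspb8, genes of muscle and heart, had none either, and the region nearest to Hspb8 lay 291502 bp away. Hspb7, also of heart and muscle, had a region in the knockout list alone, 986 bp from the gene, with 10 reads (4.80 to 18.4). It was lost with gene ends at 500 bp, at a −log10 q of at least 5, with equal numbers of top peaks and with promoter windows. Of the 3 with a ratio, Hspb6, also a gene of muscle, had 322 and 194 reads (0.941, 0.783 to 1.13) in a region shared with Proser3. Hspb9, a testis gene, had 59 and 25 (0.662, 0.397 to 1.07) in one shared with Kat2a and Rab5c. Hspb11, whose product is an intraflagellar transport protein also called IFT25, had 306 and 254 reads (1.30, 1.09 to 1.54) in a region shared with Lrrc42. Among the regions that stand for a gene, it was the highest ratio with an interval above 1. Hspbp1 and Hspbap1, which share the first letters of their symbols but encode an HSP70 exchange factor and a binding partner of HSPB1, had 435 and 314 reads (1.13) and 56 and 43 (interval 0.787 to 1.82).

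Hsf1, the main heat shock factor gene, had 206 control and 142 knockout reads (1.08, 0.863 to 1.34) in a region shared with Bop1. Hsf2 had no region within 1 kb of its ends. A region inside the gene, 2148 bp from an end, had 77 and 63 reads (1.28, 0.901 to 1.81), and it overlapped the start that the promoter table gives for Hsf2. Whether Hsf2 counts as open thus depends on the start used. With the limit at 2.5 kb, Hsf2 joined the genes open in both lists, as did Dnajc5, a synaptic vesicle gene (231 and 132 reads), Dnajb14 (68 and 51) and Dnajc25 (54 and 23). The remaining genes with no gene-end region were Dnajb7, Dnajb8, Dnajc5b, Dnajc5g, Dnajc6, Dnajc18 and Dnajc22. Dnajb7, Dnajb8, Dnajc5b and Dnajc5g are known from testis and Dnajc6 from neurons, while Dnajc18 held a region inside the gene with 83 and 46 reads (0.866, 0.590 to 1.26). Other members with such labels had open ends within 1 kb. Of 9 members listed for spermatid and testis, 5 were open in both lists, where 47.4% of coding genes were. Of 3 listed for synapse and vesicle, 1 was, Dnajc13 (265 and 158 reads).

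Summits stayed close to gene starts in both libraries. Of the 54 genes whose standing region was at the 5' end, the control summit lay within 300 bp of the outer gene start in 43 and the knockout summit in 46. The same share over all coding genes was not computed, so these counts describe the 54 alone. Control and knockout summits were a median of 24 bp apart over the 68 genes, against 38 bp over coding genes, and at most 50 bp apart in 46 of the 68 (67.6%, against 58.5%). Among genes with at least 100 control reads the medians were 22.5 and 26 bp. The knockout peak was narrower at 52 of the 68 (76.5%), as it was at 74.0% of coding genes, with a median knockout over control width of 0.941 against 0.927.

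**Figure D4:**
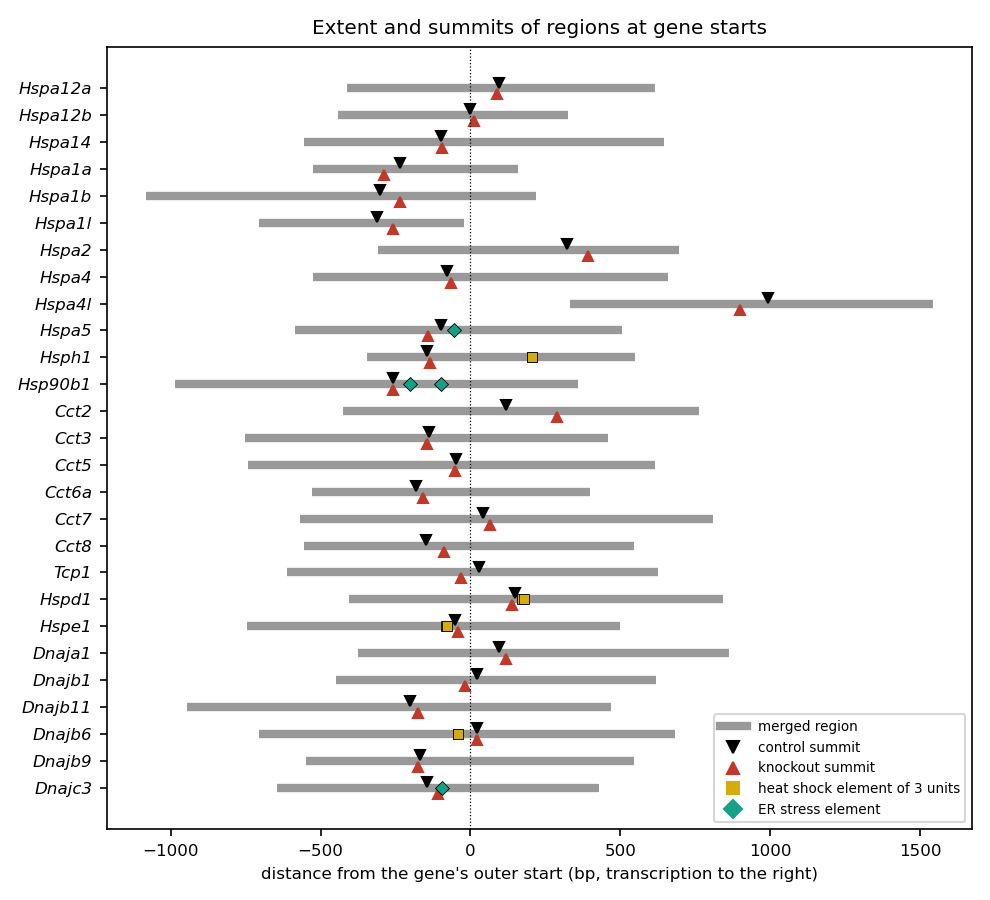
Extent of the merged region (grey bar) and the control (black) and knockout (red) summits at HSP70, HSP110, HSP90 and CCT genes, Hspd1, Hspe1 and 6 Dnaj genes whose start is in the promoter table, by distance in bp from the outer gene start; squares mark 3-unit heat shock elements and diamonds ER stress elements. Most summits sit near the start, those of Hspa4l lie downstream of it, and each marked element falls within the open region.

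Regions were shared with a neighbouring coding gene at 26 of the 68 genes (38.2%), against 30.8% of coding genes with a ratio. The 26 count the region shared by Hspd1 and Hspe1, and that shared by Hspa1a and Hspa1l, for each gene. The 26 had a median of 301.5 control reads and a median log2 ratio of −0.10, and the 42 others 145.5 reads and 0.01. Over all coding genes these log2 medians were 0.00 and 0.02. Neither the height nor the ratio of a shared region can be assigned to 1 of its genes.

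Away from gene ends, 20 of the 84 genes held 28 regions inside the gene. Both lists held 12 of these, only the control list another 12 and only the knockout list 4. Of 10922 regions inside coding genes, the shares were 51.1%, 31.6% and 17.3%. The control-only regions had 7 to 42 reads, the highest at Dnaja4 (42 reads) and Dnajc12 (38), both genes whose end regions had ratios above 1. The knockout-only regions had 6 to 16 reads, 2 of them inside Dnajb4. Among the regions in both lists, 1 inside Hspbp1 had 40 control and 11 knockout reads (0.429, 0.199 to 0.853), 1 inside Dnajc11 had 143 and 66 (0.721, 0.530 to 0.971) and 1 inside Dnajc17 had 37 and 43 (1.81, 1.14 to 2.90). The other 9 had intervals that included 1. The share of such intervals over all regions inside coding genes was not computed, so these calls have no background beside them.

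Co-chaperones and regulators outside the 84 genes were taken from a list, of which 49 were in the RefSeq table. Gene ends were open in both lists at 46 of the 49, where 47.4% of coding genes were, with 22 ratios above and 24 below 1 and a median log2 ratio of −0.03. Of the 46, 6 had an interval above 1, where 9.32% of coding genes with a ratio had one, and 1 had an interval below 1, where 7.59% had one. The 6 were Stip1, which bridges HSP70 and HSP90 (717 and 533 reads, 1.16, 1.04 to 1.30), the exchange factor Bag1 (304 and 234, 1.01 to 1.43), the tail-anchor factor Sgta (63 and 60, 1.49), the mitochondrial protease genes Clpp (253 and 213, 1.31) and Lonp1 (231 and 189, 1.28), and the stress factor Atf5 (253 and 206, 1.27). Ddit3, the gene of the ER stress factor CHOP, was the 1 below (436 and 210, 0.752, 0.635 to 0.889). The region of Clpp lay 688 bp beyond its 3' end and also within 1 kb of Alkbh7. Those of Lonp1 (Catsperd), Atf5 (Il4i1b and Nup62), Bag1 (Chmp5) and Ddit3 (Mbd6) were shared with the genes in brackets. These 5 ratios cannot be assigned to 1 gene. All 5 prefoldin genes with a ratio, which hand actin and tubulin to CCT, were below 1, from 0.759 to 0.934, where 48.5% of coding genes were. Each was within counting error and had at most 98 control reads.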

How the data were processed

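The tools were Bowtie2 2.4.4 and MACS2 2.2.7.1, beside Trimmomatic 0.39, deepTools 3.5.1 and Picard 2.26.2, with mm10 as the build, per the submitters' processing notes. These state no role or setting of a tool, so shifting of reads and treatment of duplicates and multiple matches are unknown here. Peaks were deposited as 1 list per library in narrowPeak format, without headers. Each deposited peak has a fold (the ratio of summit pileup to local background, both with a pseudocount of 1), a −log10 p and a −log10 q. The deposited score repeats the −log10 q and was not used. Whole summit reads and the background were solved from the fold and −log10 p of each peak, with a relative misfit of at most 7.31e-06 for all peaks, and this was tested on simulated data. The depth ratio of 0.640 is that of the lowest backgrounds, 0.971 and 1.52 reads. Absolute depth is unknown. Peaks with over 3000 reads, 5 per list, took no part in ratios.

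A gene with several gene-end regions was represented by the one in both lists with the most reads. Named genes were those in 1 list alone, those with an interval that left out 1, the 5 highest and 5 lowest ratios from 20 control reads, the 5 with the most reads, and all HSP70, HSP90, HSP110, chaperonin and Hsf genes; others named were chosen after their values were seen. Members and lists were chosen with earlier results of these data known. Alternatives changed the gene-end distance, peak threshold, number of peaks, overlap, scaling and choice of region. No p-value was computed. The erythroid chaperone gene Ahsp was on the list of co-chaperones and regulators but not in the RefSeq gene table, and was not analysed. Intervals are 95% intervals, exact Poisson for reads, cover counting error only, and treat each read as a molecule of its own, which holds only without amplified copies. Versions were pandas 2.3.3, SciPy 1.17.1 and NumPy 2.4.6, with matplotlib 3.10.9 for plots, under Python 3.11.15.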

Additional observations from a re-analysis of the deposited data

How the results depend on the processing

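No paired analysis was possible because there was 1 library per genotype, with different replicate numbers, and no replicate could be left out. Across all alternatives run, 57 to 72 genes were open in both lists, the median log2 scaled ratio ranged from −0.06 to −0.02, and the median width from 1093 to 1129.5 bp. Genes in the control list alone numbered 0, but 2 with equal numbers of top peaks, Hspb9 and Dnajc9, and 1 with promoter windows, Dnajc25, an alternative added after seeing the data. Genes in the knockout list alone numbered 1, but 0 at 500 bp, at a −log10 q of at least 5 and with promoter windows, and 2 with equal numbers of top peaks, Dnaja4 and Dnajc12. Intervals below 1 numbered 5, but 3 with promoter windows, which leave out Hsp90aa1 and Dnajc30 for want of an entry, 6 with the widest region of a gene, and 7 when scaled by the median of coding gene ends. Intervals above 1 numbered 5, but 4 with that scaling, with the widest region and with promoter windows. With the widest region in place of the highest, Hspa8 had 0.781 and Cct6a 0.876, both reversed, since another end then stood for the gene. Of 355 recomputed gene ratios, the other 353 stayed inside their interval, but most of these had little room to change. The settings for distance, threshold, peak number, overlap, read minimum and promoter windows nearly always kept the same region and so the same ratio. Only Hspa1l changed under them, to 0.886 at 2.5 kb. Each other scaling moved all ratios by the same small factor. With the widest region, Hsp90aa1 (0.639) and Hspd1 (0.892) also changed region but stayed inside their interval. The count of 353 therefore says little about stability. Low counts limit the ratios of small regions, and absence of a peak does not show a closed site.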
